A study of Picea abies with 48 samples.

Results

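The 50 transcripts that took the most reads in the intact hypocotyl of Norway spruce (*Picea abies*) were followed through graft healing. They were chosen by their measured level: the 70736 gene models were ranked by mean CPM (reads of a gene per 1000000 counted reads of the library) in the 3 libraries of intact plants at day 0, and the first 50 with a mean above 500 CPM over the 18 intact libraries were taken. All 50 passed the filter on low counts, which kept 38436 gene models. RNA came from the hypocotyl of wild-type plants of seed source FP-96. Skogsgård in 3 kinds of tissue. These were the scion (above the junction) and the rootstock (below it) of homografts, each joining 2 different plants of this source, and intact plants that were never cut. Grafts were taken on days 1, 3, 7, 14 and 28, counted in days after grafting (DAG), and intact plants at day 0 and on each of those days. Each of the 16 groups had 3 libraries, described as biologically independent, of 5 pooled plants each. A scion or rootstock piece was about 1 mm long and ended at the cut, while an intact piece was about 2 mm long, so position along the hypocotyl and grafting cannot be told apart in a comparison with intact plants.

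The hypocotyl is the stem segment of a seedling between its root and its cotyledons, with epidermis, cortex and a vascular cylinder of phloem and xylem. Cutting it severs the phloem, which carries sugars, and the xylem, which carries water, and a graft heals as cells near the cut divide, fill the gap and rejoin both tissues. In many plant tissues a small number of genes supply a large part of the messenger RNA, so a list of the most abundant transcripts says what a tissue mainly makes. The files pair the identifiers of these 50 genes with no name or function. None of the 50 was in the readable part of the study's supplementary gene tables, which held 4855 identifiers. The study's own cell wall and transcription factor lists are in that part. So are all descriptions used to sort genes into 7 groups (translation, photosynthesis, phenylpropanoids, cell wall, cytoskeleton, stress and defence, membrane channels). The members' absence from those lists and groups follows from this and says nothing about their function. They are described by identifier only.

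A CPM value scales a gene's count by its library's total, with no correction for gene length, so the order of members is an order of reads and not of transcript molecules. Fold changes come from a fit that also scaled libraries by the TMM method, so they can differ slightly from ratios of the CPM printed beside them. Libraries held 11511598 to 27687377 counted reads (median 18054427), and a member had between 2572 and 507064 reads in a library. The coefficient of variation between the 3 libraries of a group had a median over the members of 4.84% to 12.0% in the 16 groups. From counting alone the median was 0.396% to 0.682%, so at the median depth was not what limited these values. Markers of the tissues of the hypocotyl were detected in every library: PaAPL-like (MA_201937g0010), named after a phloem regulator, had 4.83 to 10.7 CPM in scion, 1.82 to 8.34 CPM in rootstock and 2.160 to 4.298 CPM in intact plants. PaVND4-like (MA_6777g0010), named after a xylem regulator, had 3.25 to 42.2 CPM in scion, 0.863 to 26.6 CPM in rootstock and 7.61 to 31.9 CPM in intact plants. PaPRX66-like (MA_10431507g0020), the other xylem marker, had 2.58 to 71.3 CPM in scion, 1.34 to 24.0 CPM in rootstock and 0.358 to 36.5 CPM in intact plants. PaCDKB2;2-like (MA_920994g0010), named after a kinase of dividing cells, had 16.8 to 68.7 CPM in scion, 12.0 to 66.0 CPM in rootstock and 14.93 to 48.01 CPM in intact plants. The part that these tissues' proportions have in the members' levels was not tested.

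The list was steep at its head. MA_10431300g0020 came first with 17539.5, 17759 and 19734 CPM in the 3 day 0 libraries. MA_131587g0010 had 13223, 13608 and 14271 CPM, and MA_47626g0010 had 13594, 11907 and 13415 CPM. The libraries of MA_131587g0010 and MA_47626g0010 overlapped, and all 3 of MA_10431300g0020 lay above them. MA_273360g0010 (9355 ± 504 CPM, SD, n = 3), MA_183668g0010 (7034 ± 338 CPM), MA_10427891g0010 (6628 ± 70.1 CPM), MA_10429943g0030 (5755 ± 117 CPM) and MA_491379g0010 (5673 ± 166 CPM) followed. MA_10433855g0010 (4758 ± 521 CPM) and MA_2153472g0010 (4499 ± 549 CPM) closed the first 10. Of the 49 pairs of neighbours in the order, 40 had overlapping libraries at day 0, so most positions below the first few are not distinct. The last members were MA_348255g0010 (1581 CPM), MA_30402g0010 (1555 CPM) and MA_3650g0010 (1508 CPM). The first genes outside were MA_102349g0010 (1451 CPM), described in the study's tables as a beta-D-xylosidase, MA_12201g0010 (1438 CPM) and MA_10433454g0020 (1429.8 CPM), described as an adenosylhomocysteinase. The limit of 500 CPM removed no gene, since the lowest mean of a member over the 18 intact libraries was 1018 CPM, in MA_8291837g0010.

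Much of this order did not carry over to grafted tissue. At 1 DAG, 25 of the 50 members were among the 50 highest genes of scion and 24 among those of rootstock, while 49 were among those of intact plants on that day. The members reached down to position 343 in day 1 scion (MA_348255g0010) and 687 in day 1 rootstock (MA_10426084g0030), against 54 in day 1 intact plants (MA_6198238g0010). MA_131587g0010 stood at position 27 in scion and 35 in rootstock, against 3 in intact plants. At 28 DAG 34 of the 50 were among the 50 highest genes in scion and 34 in rootstock, against 38 in intact plants of the same age. The first place belonged to MA_10431300g0020 in intact plants on every day, and to MA_6198238g0010, only at position 41 at day 0, in scion from 1 to 14 DAG. These positions follow from the choice by intact levels and are given as a description.

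**Figure D1:**
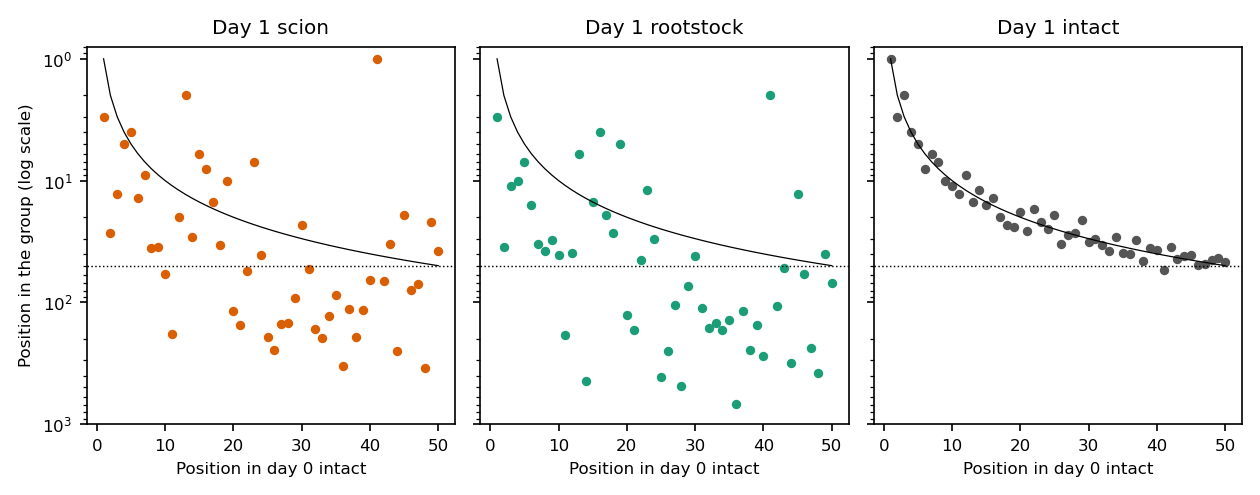
Position of each of the 50 members in day 1 scion, rootstock and intact plants (y, log scale, position 1 at the top) against its position in day 0 intact plants (x), by mean CPM of 3 libraries. The curve marks equal positions and the dotted line position 50; 25 members in scion and 24 in rootstock lie at or above it, against 49 in intact plants.

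Together the members took 18.9%, 18.5% and 19.3% of all counted reads in the 3 day 0 libraries. Their share at 1 DAG was 9.74%, 9.29% and 8.58% in scion and 9.78%, 8.51% and 8.69% in rootstock, against 20.1%, 19.1% and 18.6% in intact plants. Grafted libraries at 1 DAG were thus all below intact ones, and the scion mean was 47.7% and the rootstock mean 46.6% of the intact mean. A share of counted reads also falls where other genes take more of the reads. In bulk tissue, more RNA of other genes, fewer cells of a type and less RNA per cell cannot be told apart.

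From 3 DAG on, every scion library had a lower share than every rootstock library of its day. At 3 DAG it was 11.0% ± 0.561 in scion and 13.6% ± 0.914 in rootstock, against 18.3% ± 0.375 in intact plants (SD, n = 3 each). At 7 DAG it was 11.7% ± 0.0706 in scion and 16.8% ± 1.12 in rootstock, against 17.8% ± 0.672 in intact plants. The rootstock libraries at 7 DAG (16.04% to 18.07%) overlapped the intact ones (17.2% to 18.5%), which scion libraries (11.6% to 11.7%) did not. At 14 DAG the share was 9.93% ± 0.510 in scion and 13.0% ± 0.665 in rootstock, against 17.5% ± 0.587 in intact plants. At 28 DAG it was 11.1% ± 0.493 in scion and 12.6% ± 0.256 in rootstock, against 15.0% ± 1.13 in intact plants, and no grafted library reached the intact range. At 1 DAG the first 10 members made up the larger part of the difference. They held 2.92% ± 0.300 of reads in scion and 2.96% ± 0.431 in rootstock, against 9.09% ± 0.499 in intact plants, and the other 40 held 6.29% ± 0.285 in scion and 6.04% ± 0.257 in rootstock, against 10.2% ± 0.242 in intact plants.

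**Figure D2:**
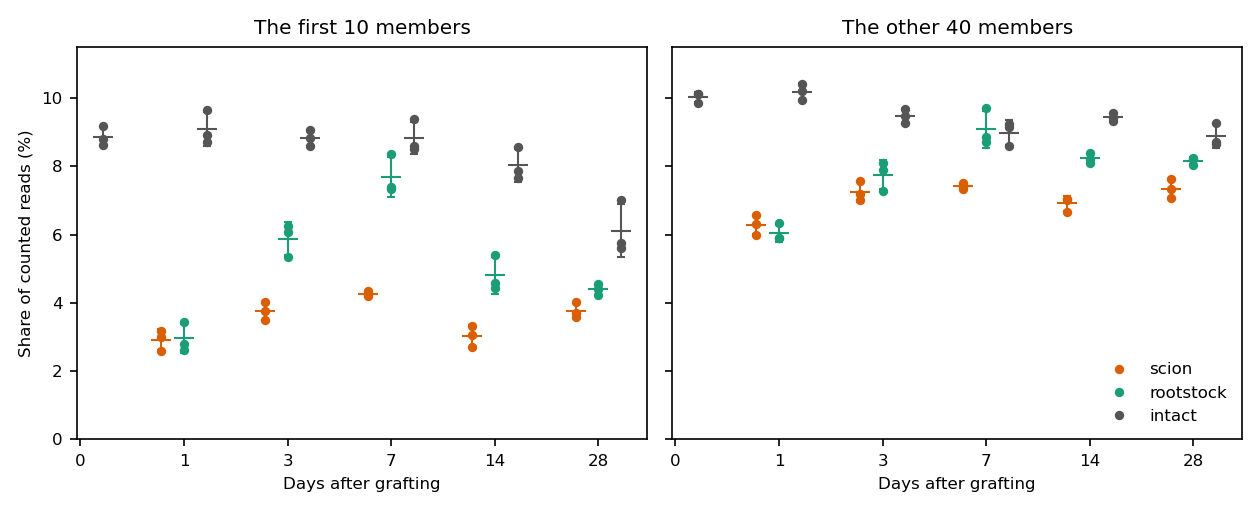
Share of counted reads taken by the first 10 members (left) and by the other 40 (right), in percent, by days after grafting, with 1 point per library and bars for the mean ± SD (n = 3) in scion, rootstock and intact plants. Every scion library lies below every intact library of its day in both panels, and so does every rootstock library but for the other 40 members at 7 DAG, where the libraries overlap.

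The members' levels also differed between ages of intact plants. None of the members was called against day 0 in intact plants at day 1, where a call is an adjusted p under 0.05 by edgeR's quasi-likelihood test and a log2 fold change beyond 1 in either direction (0.148% of all genes tested were called higher and 0.0676% lower). At day 3, 1 member was called lower and 0 higher, against 2.21% and 1.38% of all genes. At day 7, 14 were lower and 0 higher (8.11% and 6.81% of all genes), at day 14 10 lower and 1 higher (8.01% and 7.83%), and at day 28 11 lower and 1 higher (8.06% and 9.87%). The rule used these libraries, so the counts are a description and nothing is read from them. 17 members were called on at least 1 of the days, a count with no share of all genes beside it. Among the first 10, MA_273360g0010 had 2322, 2277 and 2531 CPM in intact plants at day 28, against 9496, 9772 and 8795 CPM at day 0. MA_9065834g0010 had 1216, 586 and 468 CPM in intact plants at day 7, with replicate 1 apart from the others, against 3700.0, 3582 and 3688 CPM at day 0, and 4109, 2988 and 4028 CPM at day 28. MA_6198238g0010 was the only member called higher than at day 0, at 7135, 7383 and 7812 CPM at day 28 against 1814, 2083 and 1638 CPM at day 0. All comparisons with grafted tissue used intact plants of the same day.

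Most members were called lower in grafted tissue than in intact plants at 1 DAG, and fewer on later days. In scion at 1 DAG, 36 of the 50 were called lower and 1 higher, where 11.3% and 11.4% of all genes were. In scion at 3 DAG the counts were 26 lower and 1 higher (7.56% and 9.82% of all genes), and at 7 DAG 18 lower and 2 higher (7.23% and 10.8%). At 14 DAG 29 were lower and 0 higher (7.47% and 11.0%), and at 28 DAG 7 lower and 0 higher (2.95% and 7.86%). Of the 36 members lower in scion at 1 DAG, 28 were lower at 14 DAG and 7 at 28 DAG, and 5 were lower on all 5 days. The share of all genes that stayed lower in this way was not counted.

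In rootstock the members called lower were fewer from 3 DAG on. At 1 DAG 34 members were called lower and 1 higher (16.5% and 13.8% of all genes), and at 3 DAG 8 lower and 1 higher (10.1% and 9.56%). At 7 DAG 0 were lower and 1 higher (3.93% and 7.55%). Of the 34 lower at 1 DAG, none was called lower at 7 DAG. At 14 DAG 5 were lower and 0 higher (4.77% and 9.31%), and at 28 DAG 2 lower and 0 higher (1.96% and 7.27%). The median log2 fold change of the members against intact plants, beside that of all genes tested, was -1.47 beside -0.05 in scion and -1.55 beside -0.05 in rootstock at 1 DAG. It was -0.81 beside 0.06 in scion and -0.07 beside -0.00273 in rootstock at 7 DAG, and -0.49 beside 0.05 in scion and -0.26 beside 0.04 in rootstock at 28 DAG. DESeq2 gave the same counts of 0.

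The members were picked for high intact levels, so lower values in other tissue are in part what the choice favours, and these comparisons carry no p and support nothing further. Counts of a few calls moved with single libraries. Without intact replicate 2, 4 rather than 7 members were lower in scion and 1 rather than 2 in rootstock at 28 DAG. In rootstock at 14 DAG 3 to 8 rather than 5 were lower (3 without intact replicate 2, rootstock replicate 1 or rootstock replicate 3, and 8 without rootstock replicate 2), and 1 rather than 0 was higher without rootstock replicate 1 or 2. In rootstock at 3 DAG 2 rather than 1 were higher without intact replicate 3, and at 7 DAG 1 rather than 0 was lower without intact replicate 2 or 3. With library size in place of TMM scaling, fewer members were lower in scion. The counts were 30, 17, 12 and 25 rather than 36, 26, 18 and 29 at 1, 3, 7 and 14 DAG. At 7 DAG 3 rather than 2 were higher in scion. In rootstock 7 rather than 8 were lower at 3 DAG, and at 14 DAG 3 were lower and 1 higher.

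**Figure D3:**
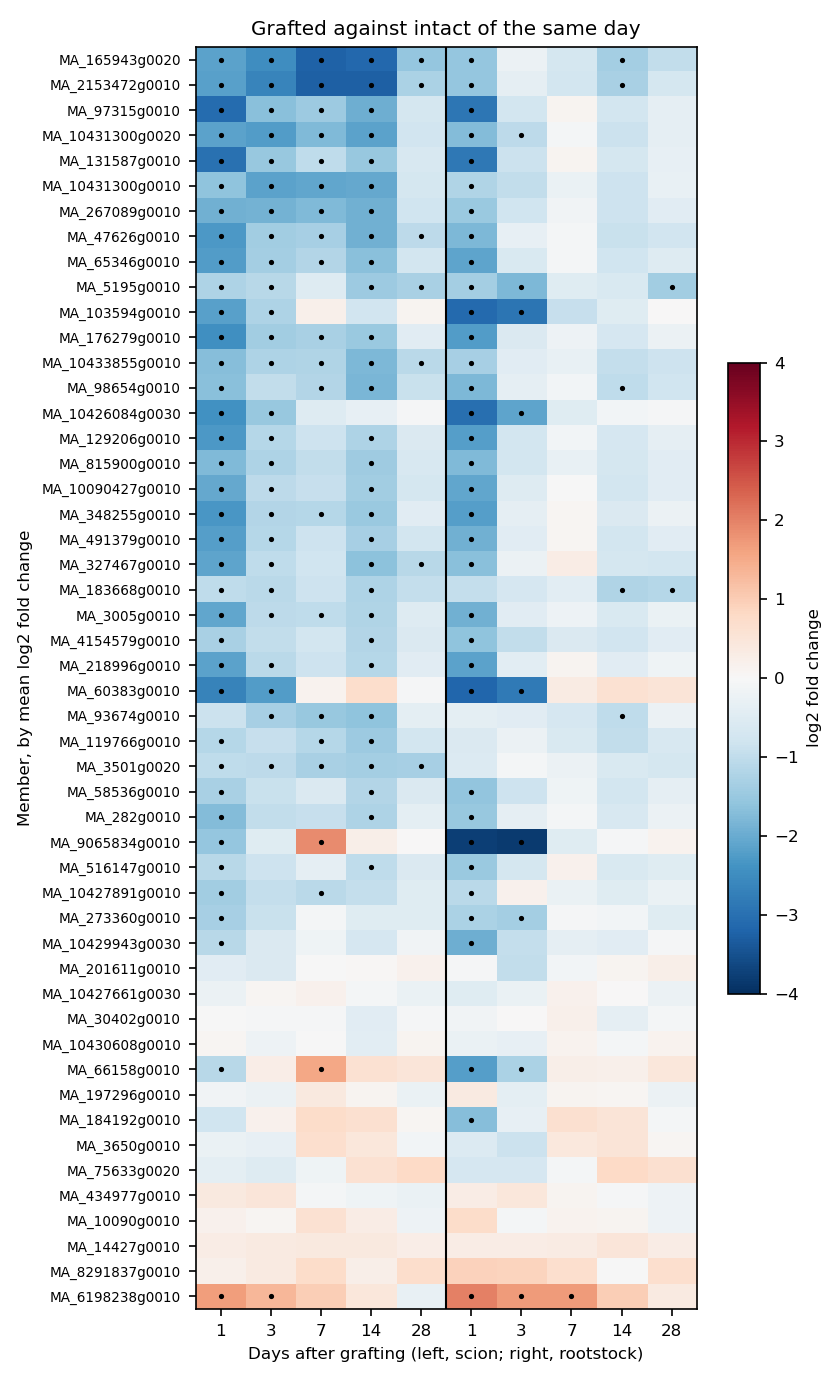
Log2 fold change of each member (rows, from the lowest mean at the top) against intact plants of the same day, in scion (left 5 columns) and rootstock (right 5 columns) at 1 to 28 DAG. Blue is lower in grafted tissue, red is higher, and a dot marks a call; 36 members in scion and 34 in rootstock are called lower at 1 DAG, 7 in scion and 2 in rootstock at 28 DAG.

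The largest mean differences over the 10 comparisons with intact plants belonged to MA_165943g0020 and MA_2153472g0010. MA_2153472g0010 had 1288, 879 and 1026 CPM in scion at 7 DAG, against 7480.2, 9722 and 9935 CPM in intact plants. MA_165943g0020 had 570.4, 466 and 482 CPM, against 3501, 4215 and 5025 CPM. The scion libraries lay far below the intact ones, and the log2 fold changes against intact plants (± SE) were -3.25 ± 0.22 for MA_2153472g0010 and -3.23 ± 0.19 for MA_165943g0020. At 28 DAG they were -1.27 ± 0.21 for MA_2153472g0010 and -1.54 ± 0.18 for MA_165943g0020.

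MA_10431300g0020, the gene with the most reads at day 0, had 6591, 4065 and 3978 CPM in scion at 1 DAG. Rootstock had 7719.6, 4796 and 4687 CPM, against 20672, 18934 and 17223 CPM in intact plants. Replicate 1 was the highest of its 3 in scion and in rootstock, and none of the grafted libraries reached the intact range. By 7 DAG rootstock had 17060.2, 19167 and 21371 CPM, which overlapped the intact 19880.1, 20104 and 22148 CPM, while scion had 6455, 7177 and 6837 CPM. MA_131587g0010 had 2188, 1735 and 1453 CPM in scion and 2249, 1510.5 and 1561 CPM in rootstock at 1 DAG, against 13178, 12949 and 11809.6 CPM in intact plants, log2 fold changes of -2.99 ± 0.15 in scion and -2.86 ± 0.15 in rootstock. MA_97315g0010 had 694, 536 and 449.6 CPM in scion and 743, 494 and 473 CPM in rootstock, against 4595, 4215 and 3706 CPM in intact plants. At 28 DAG none of these 3 was called against intact plants, with MA_131587g0010 at -0.65 ± 0.14 in scion and -0.32 ± 0.14 in rootstock.

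Called higher than in intact plants on at least 1 day were 3 of the 50 members, and only MA_6198238g0010 in rootstock. The share of all genes called higher on at least 1 day was not counted. MA_6198238g0010 had 4660.0, 5874 and 5402 CPM in scion and 5338, 6107 and 6773 CPM in rootstock at 1 DAG, against 1632, 1573 and 1198 CPM in intact plants. Its log2 fold change against intact plants was 1.68 ± 0.13 in scion and 2.02 ± 0.14 in rootstock. At 14 DAG it had 11855, 11179.9 and 14028 CPM in rootstock, against 6351, 5564 and 6194 CPM in intact plants, a log2 fold change of 0.98 ± 0.13, just short of a call. The others were MA_9065834g0010 and MA_66158g0010, called higher in scion at 7 DAG only, where intact levels were low. MA_9065834g0010 had 3430.0, 3316 and 2665 CPM in scion at 7 DAG, against 1216, 586 and 468 CPM in intact plants, and MA_66158g0010 had 3380.4, 3222 and 3084 CPM, against 1268, 885 and 833 CPM in intact plants. Both had been called lower in scion and in rootstock at 1 DAG. Over the 10 comparisons MA_6198238g0010 had the highest mean log2 fold change, and after it came MA_8291837g0010, MA_14427g0010, MA_10090g0010 and MA_434977g0010, none of them called on any day in either tissue. MA_8291837g0010 had 2425, 2198 and 2412 CPM in scion and 3200.3, 3781 and 3525 CPM in rootstock at 1 DAG, against 1604, 1939 and 1897 CPM in intact plants. MA_14427g0010 had 5113, 5082 and 4957 CPM in scion and 4737, 4459.8 and 4534 CPM in rootstock, against 3419, 3760.1 and 3738 CPM in intact plants, and the libraries did not overlap although the log2 fold changes were small (0.30 ± 0.07 in scion and 0.31 ± 0.07 in rootstock).

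**Figure D4:**
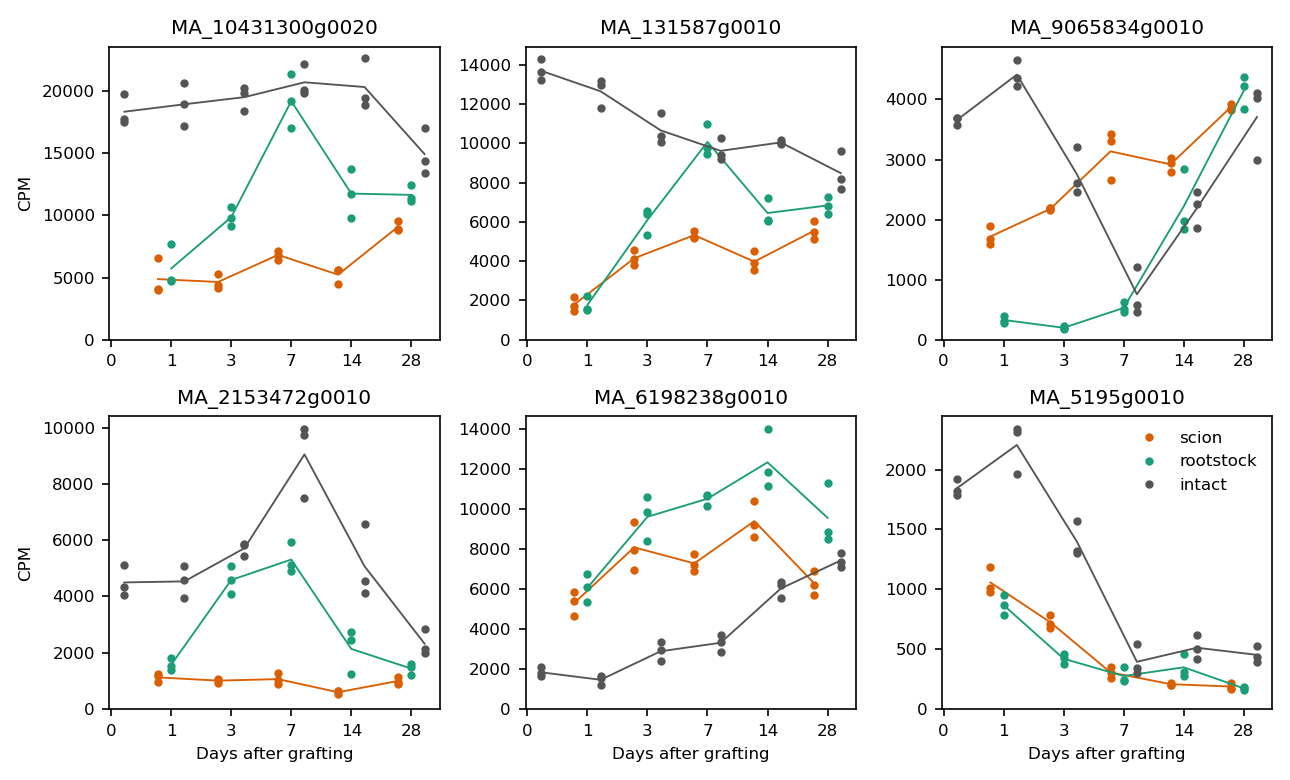
CPM of 6 members by days after grafting, 1 point per library, with lines through the group means, in scion, rootstock and intact plants (y axes start at 0 and differ between panels). MA_10431300g0020 and MA_131587g0010 are low in both grafted tissues at 1 DAG and reach the intact range in rootstock at 7 DAG, MA_9065834g0010 is at 175 to 625 CPM in rootstock through 7 DAG, MA_2153472g0010 stays at 532 to 1288 CPM in scion, MA_6198238g0010 is high in both grafted tissues at 1 DAG, and MA_5195g0010 lies between 158 and 529 CPM in every library at 28 DAG.

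11 of the 50 members were called in none of the 10 comparisons with intact plants, and the share of all genes called in none was not counted. The 5 steadiest over the 16 group means were MA_10427661g0030, MA_434977g0010, MA_14427g0010, MA_3650g0010 and MA_30402g0010, with highest and lowest group means 1.45, 1.67, 1.70, 1.83 and 1.93 fold apart on the TMM scale. MA_10427661g0030 ran from 1204 to 1985 CPM over all 48 libraries. At the other end, MA_9065834g0010 spanned 24.2 fold between day 3 rootstock and day 1 intact plants, and MA_2153472g0010 17.2 fold between day 14 scion and day 7 intact plants.

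Scion and rootstock were compared with each other on each day, which asks whether the members' levels differed between the sides of the junction. Intact pieces were not divided into an upper and a lower part, so position along the hypocotyl cannot be told apart from grafting here either. The fold changes of this comparison use no intact library. It was tested by edgeR's quasi-likelihood test, with p-values adjusted by the Benjamini–Hochberg method over all genes. The dispersion behind the p-values came from the fit of all 48 libraries, intact ones included, and with only the groups compared in the fit the members called over the 5 days were likewise 8 higher and 28 lower. At 1 DAG 2 members were higher in scion and 0 lower, against 6.37% and 3.79% of all genes. DESeq2 also called 0 lower. At an unadjusted p under 0.05 by edgeR, 18 members had a negative and 14 a positive log2 fold change, and all genes were not counted at that threshold. The 2 called were MA_9065834g0010 and MA_66158g0010, and MA_66158g0010 was not called without scion replicate 2 (0.99 on the log2 scale) or without rootstock replicate 2 (0.98). With library size in place of TMM scaling, 5 were higher.

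More members were called at 7 DAG than on any other day. At 3 DAG 3 members were higher in scion and 7 lower than in rootstock, against 7.13% and 4.48% of all genes. At 7 DAG 3 were higher and 14 lower, against 5.99% and 4.19%, and with library size in place of TMM 8 were lower. At 14 DAG 0 were higher and 7 lower, against 1.78% and 1.40%. The lower calls at 3, 7 and 14 DAG made up 14.0%, 28.0% and 14.0% of the members, above each day's share of all genes. The higher calls made up 6.0%, 6.0% and 0%, near or below that share. The members were picked for high intact levels. At 7 DAG their share of reads was 94.2% of the intact mean in rootstock and 65.6% in scion. Of the 14 lower at 7 DAG, 13 were also called lower in scion than in intact plants. The excess is thus in part what the choice favours, and nothing further is read from it. Genes of like read depth were not compared. At 14 DAG DESeq2 also called 0 higher. At an unadjusted p under 0.05 by edgeR, 1 member had a positive and 36 a negative log2 fold change, and all genes were not counted at that threshold. The members' median log2 fold change, beside that of all genes, was -0.46 beside 0.00 at 3 DAG, -0.60 beside 0.02 at 7 DAG and -0.50 beside 0.01 at 14 DAG. In each of the called cases the 3 scion libraries did not overlap the 3 rootstock libraries. Counting all members, called or not, the libraries did not overlap for 45 at 3 DAG, 41 at 7 DAG and 35 at 14 DAG. Lack of overlap therefore does not set the called members apart, and its share of all genes was not counted.

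At 28 DAG no member was called between scion and rootstock by edgeR or by DESeq2, where 0.0390% of all genes were higher and 0.133% lower. The log2 fold changes of the members lay between -0.64 and 0.21, with a median of -0.17 beside 0.00 for all genes. 17 members had a negative and 1 a positive log2 fold change at an unadjusted p under 0.05, a threshold at which all genes were not counted. Of those with a negative value, 1 passed the adjusted threshold without reaching the required fold.

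Of the 50 members, 15 were lower in scion than in rootstock on at least 1 day and 6 on 3 days. The share of all genes lower on at least 1 day or on 3 days was not counted. MA_2153472g0010 and MA_165943g0020 led these. MA_2153472g0010 had 932, 1018 and 1083 CPM in scion at 3 DAG, against 5080.2, 4103 and 4573 CPM in rootstock, a log2 fold change of -2.29 ± 0.22, adjusted p = 2.77e-10 by edgeR. It had 1288, 879 and 1026 CPM in scion at 7 DAG, against 5923, 5101 and 4909 CPM in rootstock (-2.51 ± 0.22, adjusted p = 9.86e-11). At 14 DAG the values were 625, 639 and 532 CPM in scion, against 1240.3, 2728 and 2441 CPM in rootstock, where replicate 1 was the lowest of its group (-1.95 ± 0.21, adjusted p = 2.58e-07). Even so, every scion library lay below every rootstock library on these days. MA_165943g0020 had 570.4, 466 and 482 CPM in scion at 7 DAG, against 2685, 2476 and 2503 CPM in rootstock (-2.53 ± 0.19, adjusted p = 3.14e-12). Its log2 fold changes were -2.25 ± 0.19, adjusted p = 9.16e-12 at 3 DAG and -1.80 ± 0.18, adjusted p = 6.76e-08 at 14 DAG.

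MA_10431300g0020, first of all genes in intact plants, was lower in scion than in rootstock at 3, 7 and 14 DAG. At 3 DAG it had 4193, 4438 and 5312 CPM in scion, against 9761, 9160.0 and 10655 CPM in rootstock (-1.19 ± 0.17, adjusted p = 1.38e-06 by edgeR). At 7 DAG the log2 fold change was -1.68 ± 0.18, adjusted p = 3.47e-09, and at 14 DAG, with 5617, 5601 and 4492 CPM in scion against 9794, 13730.4 and 11749 CPM in rootstock, it was -1.28 ± 0.17, adjusted p = 5.17e-06. MA_10431300g0010, whose identifier carries the same scaffold number, had 962, 1106 and 1091 CPM in scion at 7 DAG, against 2606, 2934 and 4113 CPM in rootstock (-1.81 ± 0.21, adjusted p = 3.98e-08). Its log2 fold changes were -1.16 ± 0.21, adjusted p = 4.16e-05 at 3 DAG and -1.24 ± 0.21, adjusted p = 1.07e-04 at 14 DAG. MA_47626g0010 and MA_267089g0010 were also lower on these 3 days, but close to the required fold: MA_47626g0010 had -1.07 ± 0.15, -1.24 ± 0.15 and -1.04 ± 0.15 at 3, 7 and 14 DAG, and was not called at 3 DAG without scion replicate 1 or rootstock replicate 3, nor at 14 DAG without scion replicate 3 or rootstock replicate 2. With library size in place of TMM it was not called at 3 DAG (-0.96) or 14 DAG (-0.92). MA_267089g0010 had -1.10 ± 0.19, -1.63 ± 0.20 and -1.11 ± 0.19 on the same days, and was not called at 3 DAG without rootstock replicate 3, nor at 14 DAG without scion replicate 3 or rootstock replicate 2. With library size it had -0.997 at 3 DAG and -0.999 at 14 DAG, just short of a call on both days.

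3 of the 50 members were higher in scion than in rootstock on at least 1 day. MA_9065834g0010 had 1891, 1676 and 1587 CPM in scion at 1 DAG, against 402, 316 and 271 CPM in rootstock, a log2 fold change of 2.23 ± 0.22, adjusted p = 4.74e-10 by edgeR. At 3 DAG it had 2185, 2166 and 2189 CPM in scion, against 227, 175 and 195 CPM in rootstock (3.34 ± 0.23, adjusted p = 1.21e-13). At 7 DAG it had 3430.0, 3316 and 2665 CPM, against 514, 454 and 625 CPM (2.37 ± 0.22, adjusted p = 2.81e-10). The libraries were far apart on these days and overlapped by 14 DAG, with 3018, 2946 and 2797 CPM in scion and 2845, 1976 and 1842 CPM in rootstock (0.28 ± 0.21, adjusted p = 0.496). MA_66158g0010 was higher in scion at 3 DAG (2204, 1917 and 1817 CPM, against 639.9, 607 and 689.9 CPM in rootstock, 1.51 ± 0.12, adjusted p = 7.67e-13) and at 7 DAG (3380.4, 3222 and 3084 CPM, against 1048, 1042 and 1321 CPM, 1.31 ± 0.12, adjusted p = 5.79e-11). MA_103594g0010 was higher at 3 DAG (773, 626 and 594 CPM, against 199, 162 and 211 CPM, 1.69 ± 0.20, adjusted p = 4.33e-08) and at 7 DAG (796, 710.3 and 618 CPM, against 259, 289.6 and 298 CPM, 1.14 ± 0.20, adjusted p = 3.38e-05). 32 of the 50 were called on no day. For these counts over 5 days no share of all genes was counted either.

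**Figure D5:**
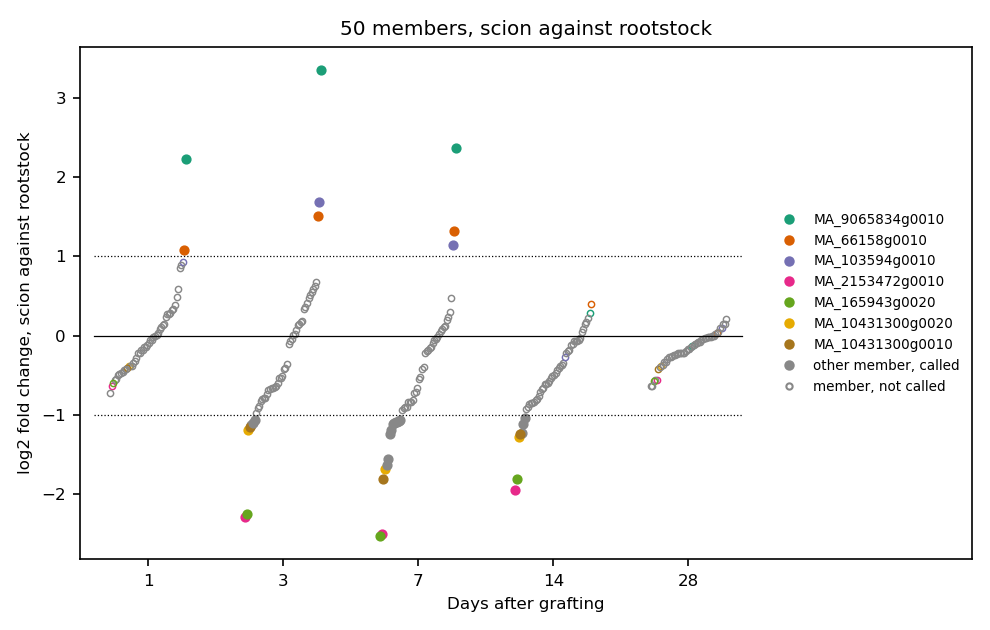
Log2 fold change of each member in scion against rootstock (y) by days after grafting (x), members spread within a day by their value. Filled points are called and open points are not, coloured for 7 named members, and dotted lines mark the required fold; 14 members are called lower and 3 higher at 7 DAG, none at 28 DAG.

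Each tissue was also compared between 28 and 1 DAG, by the same fit, with no intact library in the fold change. With only the groups compared in the fit, 9 members were higher and 5 lower in scion, and 18 higher and 6 lower in rootstock. In scion 10 members were higher at 28 DAG than at 1 DAG and 5 lower, against 16.2% and 10.6% of all genes. In rootstock 18 were higher and 6 lower, against 19.4% and 11.9%. These were 20.0% and 10.0% of the members in scion, near the shares of all genes. In rootstock they were 36.0% and 12.0%, and the share that rose was above that of all genes. Of the members that rose, 10 in scion and 17 in rootstock had been called lower than intact plants at 1 DAG. Such low values are in part what the choice by intact levels favours, so nothing further is read from the excess. The median log2 fold change of the members was 0.35 beside 0.07 for all genes in scion and 0.62 beside 0.07 in rootstock. All 10 members that rose in scion also rose in rootstock (10 of 18 there), and all 5 that fell in scion also fell in rootstock (5 of 6 there). How many of all genes called in scion were also called in rootstock was not counted, so this is not read as particular to the members.

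The largest rises in scion were those of MA_176279g0010, MA_97315g0010 and MA_131587g0010. MA_176279g0010 had 1674, 1667 and 1785 CPM at 28 DAG, against 507, 508 and 381 CPM at 1 DAG, a log2 fold change of 1.80 ± 0.11, adjusted p = 2.72e-17 by edgeR. MA_97315g0010 had 1866, 1801 and 2103 CPM at 28 DAG, against 694, 536 and 449.6 CPM at 1 DAG (1.70 ± 0.19, adjusted p = 1.15e-09), and MA_131587g0010 5125, 5477 and 6065 CPM, against 2188, 1735 and 1453 CPM (1.56 ± 0.14, adjusted p = 6.08e-12). For each of these 3, every scion library at 28 DAG lay above every one at 1 DAG. In rootstock MA_9065834g0010 rose the most, to 3836, 4373 and 4231 CPM at 28 DAG, against 402, 316 and 271 CPM at 1 DAG (3.45 ± 0.23, adjusted p = 4.10e-15). MA_66158g0010 had 2247, 2992 and 2651 CPM at 28 DAG, against 509, 392 and 462 CPM at 1 DAG (2.33 ± 0.12, adjusted p = 3.54e-19), and MA_97315g0010 2407, 2334 and 2349.9 CPM at 28 DAG, against 743, 494 and 473 CPM at 1 DAG (1.85 ± 0.19, adjusted p = 1.36e-10).

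The 3 largest falls in scion and the 3 largest in rootstock were those of MA_5195g0010, MA_8291837g0010 and MA_197296g0010. MA_5195g0010 had 172, 179 and 214 CPM in scion at 28 DAG, against 1185, 1012 and 973 CPM at 1 DAG (-2.57 ± 0.19, adjusted p = 2.00e-13 by edgeR), and 182, 179 and 158 CPM in rootstock, against 952, 869 and 782 CPM (-2.52 ± 0.19, adjusted p = 1.87e-13). MA_8291837g0010 had 888, 789 and 1018 CPM in rootstock at 28 DAG, against 3200.3, 3781 and 3525 CPM at 1 DAG (-2.16 ± 0.16, adjusted p = 2.52e-14), and fell by 1.39 ± 0.15 on the log2 scale in scion (adjusted p = 1.23e-09). MA_197296g0010 fell by 1.51 ± 0.12 in scion (adjusted p = 2.04e-13) and by 1.98 ± 0.12 in rootstock (adjusted p = 8.63e-17). These 3 were also lower in intact plants at 28 days than at day 0, with 393 to 529 CPM against 1787 to 1924 CPM for MA_5195g0010, 529.7 to 590.1 CPM against 1643 to 1707 CPM for MA_8291837g0010 and 1494 to 1732 CPM against 3309.8 to 3889 CPM for MA_197296g0010. The difference between 28 and 1 DAG thus holds the plants' age as well as healing, and these cannot be told apart within grafted tissue.

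Some members followed each other closely over the 48 libraries. As a description, the Pearson correlation of log2 TMM-scaled CPM had a median of 0.389 over the 1225 pairs of members, was above 0.9 in 148 pairs and below 0 in 302. The points share library, depth and group, and the groups differ in level, so no p is given. The closest pair was MA_2153472g0010 with MA_165943g0020 (r = 0.992), whose read ratio lay between 1.45 and 2.36 in every library. MA_10431300g0020 was closest to MA_267089g0010 (r = 0.991), at 5.01 to 7.51 times its reads. A set formed by MA_131587g0010, MA_97315g0010, MA_129206g0010, MA_176279g0010, MA_3005g0010 and MA_348255g0010 held several of the next pairs, among them MA_176279g0010 with MA_3005g0010 (r = 0.989) and MA_131587g0010 with MA_97315g0010 (r = 0.987). The most opposed pair was MA_10426084g0030 with MA_6198238g0010 (r = -0.87).

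MA_10431300g0020 and MA_10431300g0010 were the only members whose identifiers carried the same scaffold number. Their read ratio had a median of 5.45 and a range of 3.77 to 6.87 over the 48 libraries. At 1 DAG it was 4.10 ± 0.294 in scion and 4.01 ± 0.153 in rootstock, against 5.83 ± 0.273 in intact plants (SD, n = 3 each). Whether these or other members are near-identical copies that share reads was not analysed here, and their separate values are uncertain to that extent.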

How the data were processed

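Poly(A) RNA of hypocotyl tissue was sequenced as stranded paired-end libraries. The authors filtered out ribosomal reads (SortMeRNA), trimmed the rest (fastp), mapped them to the PlantGenIE spruce assembly (STAR) and assigned them to gene models on the reverse strand (HTSeq). The deposited values are these raw counts, with no normalization. CPM was each count divided by its library's total, times 1000000. In edgeR 4.0.16 (R 4.3.3, limma 3.58.1), 38436 of 70736 gene models passed filterByExpr (minimum count 10), libraries were TMM-scaled, and all 48 libraries in 16 groups entered 1 quasi-likelihood fit, robust, with a trended dispersion. The SE of a log2 fold change is its size over the square root of F. Calls used a Benjamini–Hochberg adjusted p under 0.05 over all genes and an absolute log2 fold change above 1. The share of all genes called was counted for single comparisons only, not over several days or comparisons. The procedure was tested on simulated data.

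The members, gene lists and tests were chosen with earlier results of these data known. Since the members were ranked on intact libraries, comparisons with or among intact plants carry no p-value. Members were named by fixed rules: the first 10 in order, the 5 with the largest and 5 with the smallest mean log2 fold change against intact plants, the 5 with the smallest range, the 5 called on most days between scion and rootstock with ties broken by mean absolute log2 fold change, the 3 with the largest rise and fall between 28 and 1 DAG in each tissue, and the 3 on either side of the limit; others named were chosen after their values were seen. P-values set a difference against the spread between the 3 libraries within groups, estimated over all 16 groups together. Where the labels give the same replicate number to scion and rootstock, the deviations of same-numbered libraries from their group means correlated at 0.164 to 0.214 at 7 DAG, 0.136 to 0.201 at 14 DAG and 0.242 to 0.413 at 28 DAG, so the numbers were taken to pair these libraries, and at -0.159 to 0.177 at 1 DAG and -0.0846 to -0.0420 at 3 DAG, where they were not. The printed SE and p-values come from the fit without a replicate block, so they do not use this pairing. Alternatives were DESeq2 1.42.0, other scalings and filters, the replicate block, fits of only the groups compared, no fold threshold and leaving out each library.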

Additional observations from a re-analysis of the deposited data

Results flagged for a closer look

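The difference between scion and rootstock on the same day was tested for every member by edgeR's quasi-likelihood test, and 5 members are listed for a closer look because the tissues differed. Of the 8 members called on 3 days each, these had the largest mean absolute log2 fold change over the 5 days. MA_9065834g0010 was higher in scion, with log2 fold changes of 2.23 ± 0.22, adjusted p = 4.74e-10 at 1 DAG, 3.34 ± 0.23, adjusted p = 1.21e-13 at 3 DAG and 2.37 ± 0.22, adjusted p = 2.81e-10 at 7 DAG. MA_2153472g0010 was lower in scion, with -2.29 ± 0.22, adjusted p = 2.77e-10 at 3 DAG, -2.51 ± 0.22, adjusted p = 9.86e-11 at 7 DAG and -1.95 ± 0.21, adjusted p = 2.58e-07 at 14 DAG. MA_165943g0020 was lower, with -2.25 ± 0.19, adjusted p = 9.16e-12 at 3 DAG, -2.53 ± 0.19, adjusted p = 3.14e-12 at 7 DAG and -1.80 ± 0.18, adjusted p = 6.76e-08 at 14 DAG. MA_10431300g0010 was lower, with -1.16 ± 0.21, adjusted p = 4.16e-05 at 3 DAG, -1.81 ± 0.21, adjusted p = 3.98e-08 at 7 DAG and -1.24 ± 0.21, adjusted p = 1.07e-04 at 14 DAG. MA_10431300g0020 was lower, with -1.19 ± 0.17, adjusted p = 1.38e-06 at 3 DAG, -1.68 ± 0.18, adjusted p = 3.47e-09 at 7 DAG and -1.28 ± 0.17, adjusted p = 5.17e-06 at 14 DAG. In each case all 3 scion libraries lay on the same side of all 3 rootstock libraries. The same held for 26, 45, 41 and 35 members at 1, 3, 7 and 14 DAG, called or not, so it does not set these 5 apart.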

How the results depend on the processing

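Over the 5 days, members were called 4 times higher and 116 lower in scion against intact plants, 3 and 49 in rootstock against intact plants, 8 and 28 in scion against rootstock, and 10 and 5 in scion and 18 and 6 in rootstock between 28 and 1 DAG. With no fold threshold these became 29 and 183, 29 and 146, 33 and 103, 24 and 12, and 31 and 12, which follows from the construction of that alternative. With library size in place of TMM, 18 rather than 28 were lower in scion against rootstock, and 91 rather than 116 in scion against intact plants. That scaling moved the median log2 fold change of all genes by up to 0.196. The move was over 0.1 between scion and intact plants and between scion and rootstock at 1 to 14 DAG. It was also over 0.1 in rootstock between 28 and 1 DAG. The members' median between scion and rootstock at 1 DAG turned to 0.05, against -0.10 with TMM. With DESeq2, RLE factors, other filters or only the groups compared, each count stayed within 1.5 times its value. With the replicate block, in the fit of all libraries or within days, the counts were again 8 higher and 28 lower in scion against rootstock, and the block changed none of the other counts. Leaving out 1 library gave 4 to 5 and 112 to 119, 3 to 4 and 47 to 52, 7 to 9 and 24 to 30, 8 to 12 and 5 to 6, and 14 to 19 and 5 to 7, in the same order. Of the 37 log2 fold changes followed through every alternative, those that put a member among the named, none reversed or lost its call. Other calls between scion and rootstock were lost: those of MA_47626g0010, MA_267089g0010 and MA_66158g0010 without single libraries as given above, of 4 members at 7 DAG without rootstock replicate 3, and with library size those of MA_47626g0010 and MA_267089g0010 at 3 and 14 DAG and of 6 members at 7 DAG, among them MA_131587g0010 (-0.92) and MA_176279g0010 (-0.90). With library size MA_14427g0010 averaged 0.424 and MA_434977g0010 0.182 against intact plants. The 50 members were the same under each alternative to the ranking. At the median over the members, counting error was below the spread between libraries in every group.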

Other observations

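Genes outside the list of 50 took places at the head of grafted tissue. They were picked by position after their values were seen and are given as values, with no test. MA_10427345g0010, described in the study's tables only as a hypothetical protein, was the first gene at 1 DAG below the junction, with 6565 ± 642 CPM in day 1 rootstock, against 145 ± 39.0 CPM in day 1 intact plants (SD, n = 3 each), and was at position 11 in day 1 scion with 3456 ± 576 CPM. MA_8872g0010, with no description, had 5775 ± 282 CPM in day 3 rootstock, against 800.3 ± 78.2 CPM in day 3 intact plants, and held position 6 in rootstock. MA_10103038g0010, described as anti-microbial, had 3867 ± 208 CPM in day 3 rootstock, against 296 ± 107 CPM in day 3 intact plants. MA_10427514g0010, described as a class IV chitinase, an enzyme that cuts the chitin of fungal walls, had 3456 ± 343 CPM in day 3 rootstock, against 83.0 ± 46.9 CPM in day 3 intact plants, and was at position 4748 in intact plants at day 0.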
